A study of Mus musculus with 5 samples.

Results

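The genes described are 10 members of the glucose uptake and glycolysis pathway of the mouse: Slc2a1, Hk2, Gpi1, Pfkl, Aldoa, Tpi1, Pgk1, Pgam1, Eno1 and Ldha. They were chosen by symbol, all 10 had a probe, and they are 10 of the 16032 genes named on the array. Aldoa alone had a pair of probes, of which the brighter was used. Total RNA was measured on 5 one-colour arrays, as Cy5 probe intensities on a linear scale with a median of about 50 on each array.

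All cells derive from feeder-free E14tg2a ES cells of strain 129 (male) that express myr-Akt-Mer, a membrane-anchored Akt kinase which 4-hydroxytamoxifen (4OHT) activates, so the cells without 4OHT carry the fusion gene too. There was 1 array of line 21 ES cells without 4OHT and 1 of line 21 ES cells given 1 µM 4OHT. A further 2 arrays came from Akt-spheres, 1 from line 21 and 1 from line 42, labelled as resembling primordial germ cells (PGCs). Spheres were induced and grown on OP9 stromal cells in medium with 4OHT, after 3 days of 4OHT on the ES cells, and OP9 cells were removed by plating for 30 minutes. The last array held ES-like cells reverted from line 21 spheres on mouse embryonic fibroblasts (MEFs), with a transient 4OHT treatment, and the labels do not say whether MEFs were removed. Line 42 was arrayed as spheres only, so line and replicate cannot be told apart within the spheres. Culture medium also differs between spheres and ES cells. Nothing in the labels says whether cultures were repeated, so p-values measure the spread between these arrays only. That spread holds the differences between the 3 ES-type cultures and between the 2 sphere lines, beside any technical part.

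Glycolysis turns glucose into pyruvate in the cytosol, and lactate dehydrogenase turns pyruvate into lactate. Pluripotent stem cells are known for a high glycolytic flux. Akt is known to promote glucose uptake and hexokinase activity, and the hypoxia-inducible factors (HIFs) and Myc are known activators of many genes of the pathway.

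The RefSeq promoter windows of these genes, 250 bases before to 50 after each annotated start (build GRCm38.p6), were searched on both strands for ACGTG, the usual core of the HIF response element, and for its variant, GCGTG. All 10 members had a window, 15 windows in all because Aldoa, Eno1 and Ldha have several starts. Either motif occurred in 12 of the 15 member windows. By gene, 8 members had it in at least 1 window, and Gpi1 and Tpi1 had neither. Of all 32851 windows in the table, 43.8% held either motif. ACGTG stood in 19.6% of them, and the variant in 32.4%. Among the members, 6 had ACGTG in any window. The shares are per window, while members with several starts had more than 1, and windows were not matched for base content. ACGTG overlaps the E-box CACGTG, the core of the Myc site, which stood in 7.15% of all windows and, among the members, only in the first Ldha window. A match is a description of letters, not of binding. Because they contrast members with and without a match, the 250 bases before the start are given 5′ to 3′ for Gpi1 and Tpi1, for Pgk1 and the first start of Ldha, and for Ero1a, the gene of an ER oxidoreductase in the hypoxia list, which rose in spheres. Capitals mark the matches, and a match on the other strand appears as its reverse complement, such as CACGT.
Gpi1, chr7:34230337-34230586, minus strand: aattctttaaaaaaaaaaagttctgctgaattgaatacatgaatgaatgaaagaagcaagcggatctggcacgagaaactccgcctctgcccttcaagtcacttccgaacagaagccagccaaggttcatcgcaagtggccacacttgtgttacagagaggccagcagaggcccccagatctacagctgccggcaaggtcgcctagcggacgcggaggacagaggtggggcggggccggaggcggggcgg
Tpi1, chr6:124814159-124814408, minus strand: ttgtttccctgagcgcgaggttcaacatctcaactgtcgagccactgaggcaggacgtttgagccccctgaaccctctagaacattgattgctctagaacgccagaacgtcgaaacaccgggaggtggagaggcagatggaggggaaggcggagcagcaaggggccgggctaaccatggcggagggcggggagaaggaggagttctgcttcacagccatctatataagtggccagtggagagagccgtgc
Pgk1, chrX:106186850-106187099, plus strand: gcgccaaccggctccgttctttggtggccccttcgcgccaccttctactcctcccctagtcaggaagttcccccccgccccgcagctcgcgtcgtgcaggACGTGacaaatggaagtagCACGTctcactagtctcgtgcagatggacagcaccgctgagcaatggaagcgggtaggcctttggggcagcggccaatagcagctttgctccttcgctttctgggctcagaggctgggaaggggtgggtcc
Ldha, chr7:46845554-46845803, plus strand: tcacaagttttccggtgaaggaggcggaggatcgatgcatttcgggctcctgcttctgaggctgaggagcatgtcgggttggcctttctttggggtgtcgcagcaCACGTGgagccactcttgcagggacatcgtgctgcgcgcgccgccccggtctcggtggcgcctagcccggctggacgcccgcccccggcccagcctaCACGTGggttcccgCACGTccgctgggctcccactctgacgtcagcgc
Ero1a, chr14:45318573-45318822, minus strand: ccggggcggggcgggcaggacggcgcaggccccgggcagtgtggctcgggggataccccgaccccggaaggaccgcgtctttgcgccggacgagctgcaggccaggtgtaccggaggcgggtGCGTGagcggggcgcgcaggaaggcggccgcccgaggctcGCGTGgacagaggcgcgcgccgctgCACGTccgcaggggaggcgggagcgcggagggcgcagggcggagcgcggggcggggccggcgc
Pgk1 held ACGTG beginning 150 bases before the start, and its reverse complement beginning 131 bases before. In the first Ldha window 5 ACGTG matches fell on 3 places, since each CACGTG holds the motif on both strands, and 2 further matches of the variant lay after the start, outside the bases shown.

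Values below are deposited intensities. Differences are on the log2(intensity + 1) scale after each array was centred on its median, and are negative where the first-named group is lower. A probe's level is compared between arrays only, never with another probe. The cells were measured in bulk, so fewer cells of a type and less RNA per cell cannot be told apart.

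Across the arrays, 22871 probes were listed or empty, with 6.09% to 9.11% empty per array, and no member was empty anywhere. The summed intensity ran from 15213653 on the line 21 sphere array to 19321075 on that of ES cells with 4OHT. The brightest member reading, 56985 for Pgam1 in line 42 spheres, lay below the highest value of that array, 109127. Of 13 ES cell markers limma called 6 lower in spheres, while Nanog read 5523 and 4003 in spheres against 3839 to 5480 elsewhere. Of the 15 compared markers of OP9 stroma and fibroblasts, 0 were called higher and 2 lower in spheres, where 0.963% of all genes were called higher and 1.47% lower. Summed over their 20 probes, these stromal markers read 2026 and 986 in the spheres of lines 21 and 42, while the ES cells gave 2408 without 4OHT and 2861 with it, and reverted cells 4782. The genes called lower in spheres were Thy1 and Acta2, while the stromal marker Mgp read 4.84, 5.21 and 4.43 on ES-type arrays, 328 in line 21 and 10.1 in line 42 spheres (log2 3.38, limma adjusted p = 0.249). Of 4 compared adipocyte markers, which OP9 cells can come to express, 1 was called higher, with a list median of 0.75. It was Fabp4, at 4.99, 4.63 and 6.07 on ES-type arrays and 183 and 143 in spheres (log2 4.72, limma adjusted p = 0.00433). Thy1, Acta2, Mgp and Fabp4 were picked after their values were seen. The 8 adipocyte probes summed to 754 and 557 in spheres and to 283 to 543 elsewhere. What part other cells had in the results was not tested.

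**Figure D1:**
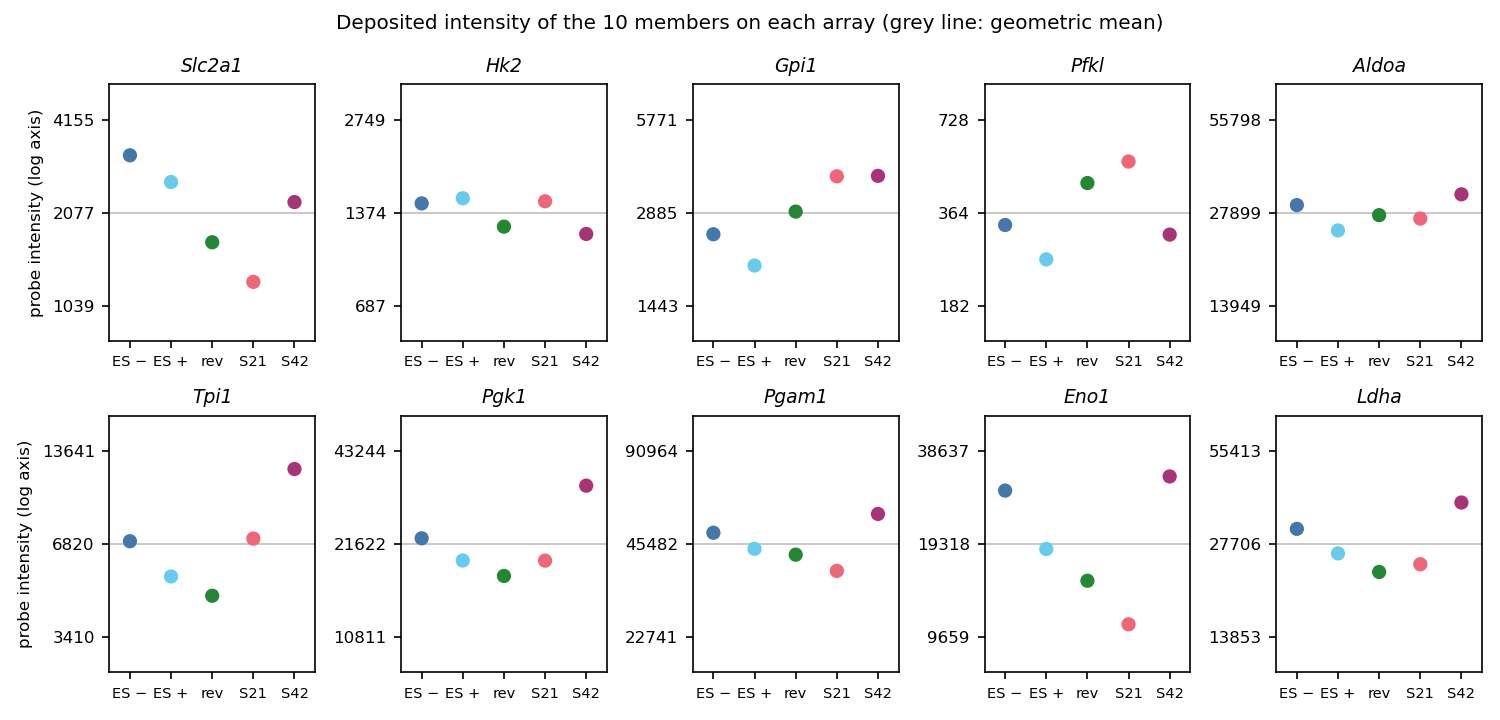
Deposited probe intensity (log axis, ticks at 2-fold steps around the geometric mean drawn in grey) of each member on 5 arrays: ES − and ES +, line 21 ES cells without and with 4OHT; rev, reverted cells; S21 and S42, spheres of lines 21 and 42; 1 point is 1 array. Gpi1 is at 3785 and 3798 in the sphere lines, whereas Eno1 is at 10634 and 32015.

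The first question was whether the pathway differs between spheres and all ES-type cultures. No member was called in spheres (n = 2) against the 3 ES-type arrays together. With limma, 0 of 10 members passed an adjusted p of 0.05 in either direction, where 258 of 10589 genes, 2.44%, did. At an unadjusted p under 0.05 there was 1 member, Gpi1, against 18.9% of all genes. limma with a trended robust prior, which called 256 genes, called 0 members too. The 4-mean version of limma called 0 of all genes, so its 0 members say nothing about them. The members' median log2 difference was 0.16, with 7 above 0 and 3 below, and the median of all genes was 0.00. The 95% interval of the difference lay within 2-fold either way for 4 members, Hk2, Aldoa, Pgam1 and Ldha. For the other 6, the interval reached past 2-fold. Among all genes 39.2% had an interval within 2-fold.

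At the entry of the pathway, the glucose transporter gene Slc2a1 (GLUT1) read 3186 in ES cells without 4OHT and 2611 with it. It read 1667 in reverted cells, 1241 in line 21 spheres and 2249 in line 42 spheres. Its level was highest in the ES cells without 4OHT and lowest in line 21 spheres, and line 42 spheres lay inside the range of the ES-type arrays. The log2 difference of spheres was -0.52 (SE 0.40, 95% interval -1.51 to 0.47, limma adjusted p = 0.557). Hexokinase 2 (Hk2), which traps glucose as its phosphate, had the second narrowest range of the members, with 1473, 1531 and 1239 on the ES-type arrays in the same order and 1496 and 1173 in spheres. The groups overlapped (log2 -0.08, SE 0.25, interval -0.70 to 0.54, limma adjusted p = 0.895).

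Gpi1, glucose-6-phosphate isomerase, was the only member whose groups did not overlap. It read 2457, 1946 and 2910 on the arrays of ES cells without 4OHT, with 4OHT and of reverted cells, and 3785 and 3798 in spheres. Both sphere lines were above every ES-type array and nearly equal to each other. The difference was 1.58-fold (log2 0.66, SE 0.27, interval 0.00 to 1.32), did not pass (limma unadjusted p = 0.0499, adjusted p = 0.264), and both spheres stood above all ES-type arrays in 19.1% of genes. Either kind of separation was seen in 1 of 10 members and 37.5% of genes. Pfkl, the liver-type subunit of phosphofructokinase at the committed step, read 332, 257 and 454 on ES-type arrays. In spheres it was at 533 in line 21, the highest of the 5 arrays, and at 309 in line 42. The lines thus lay on different sides of the ES-type mean (log2 0.27, SE 0.38, limma adjusted p = 0.763).

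Of the 10 members, 6 had their highest level on the 1 array of line 42 spheres, namely those from aldolase to lactate dehydrogenase. Slc2a1, Hk2, Gpi1 and Pfkl did not. For Aldoa the lead over ES cells without 4OHT was 0.01 log2 units. Gapdh and Pkm, which lie in this stretch but are not members, were highest in ES cells without 4OHT once arrays were centred. Their log2 levels there were 8.81 and 12.48, against 8.72 and 12.41 in line 42 spheres. The share of all genes highest in line 42 spheres was not counted. In line 21 spheres Aldoa, Tpi1, Pgk1 and Ldha stood inside the ES-type range. Aldoa, which splits fructose bisphosphate, varied least, with 29528, 24453 and 27392 on ES-type arrays against 26709 and 31995 (log2 0.12, SE 0.24, limma adjusted p = 0.839). Its dimmer probe read 2364, 2279 and 1806 against 1389 and 2812, with a difference of the other sign (log2 -0.11). Tpi1, triose phosphate isomerase, had the largest positive difference of the members. It read 6973, 5363 and 4645 on ES-type arrays, and 7113 in line 21 and 11944 in line 42 spheres (1.66-fold, log2 0.73, SE 0.34, interval -0.09 to 1.55, limma adjusted p = 0.311). The line 21 spheres and the ES cells without 4OHT differed by 0.02 log2 units in Tpi1, in favour of the ES cells once arrays were centred, so the groups overlapped.

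Pgk1, phosphoglycerate kinase, which makes the first ATP of the pathway, read 22596.5, 19149 and 17067 on ES-type arrays and sphere arrays of 19133 and 33448 (log2 0.38, SE 0.32, limma adjusted p = 0.584). Pgam1, phosphoglycerate mutase, read 49538, 43955 and 42067 against 37286 and 56985 (log2 0.04, SE 0.27, limma adjusted p = 0.963). In Pgam1 the line 21 spheres were below and the line 42 spheres above all ES-type arrays. Eno1, the enolase gene, showed the same arrangement with the widest range of the members, 2.90-fold. It read 28813, 18643 and 14713 on ES-type arrays, 10634 in line 21 and 32015 in line 42 spheres (log2 -0.11, SE 0.54, interval -1.43 to 1.22, limma adjusted p = 0.941). Ldha, which makes lactate, read 31065, 25867 and 22528 against 23858 and 37802 (log2 0.20, SE 0.30, limma adjusted p = 0.783). A sphere array below and the other above all ES-type arrays was seen for 9.26% of all genes.

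**Figure D2:**
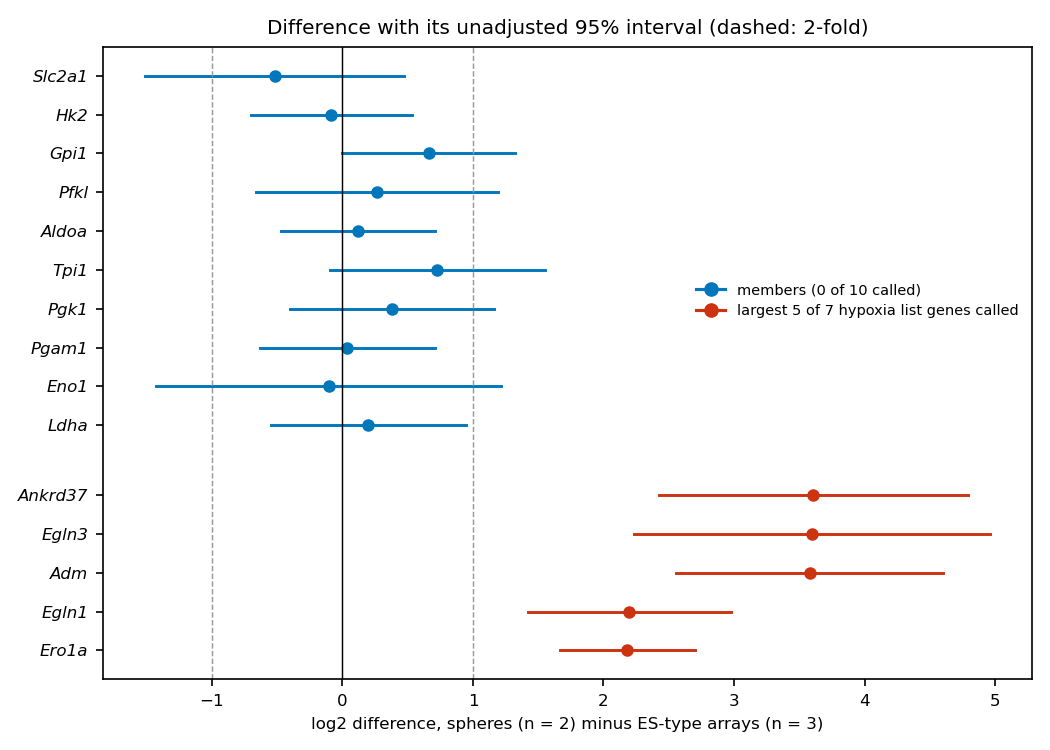
Log2 difference between spheres (n = 2) and ES-type arrays (n = 3) with its unadjusted 95% interval (lines), for the 10 members (blue) and the 5 hypoxia list genes with the largest difference among the 7 that limma called (red); dashed lines mark 2-fold. The members lie between -0.52 and 0.73, these hypoxia genes between 2.18 and 3.61. The 5 genes were picked by their size in these data, so the gap from the members follows from that choice. All compared genes of the hypoxia list ran from -1.67 to 3.61, with a median of 0.875.

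Spheres were then set against each ES-type culture in turn, asking which members were 2-fold or more apart, in 1 direction, in both lines. Against ES cells without 4OHT there were 0 of 10, where 10.5% of 10284 genes were. Slc2a1 came nearest, 2.66-fold lower in line 21 and 1.52-fold lower in line 42 spheres. In line 21 spheres alone, Eno1 was 2.80-fold lower too, but in line 42 spheres it differed from those ES cells by 0.05 log2 units. Against ES cells with 4OHT, where 4OHT was given on both sides, the count was again 0, and 12.8% of 10407 genes passed. Kinase activity is not among these data. Gpi1 was 2.07-fold higher in line 21 and just short of the threshold in line 42 spheres (log2 1.05 and 1.00). Pfkl passed 2-fold in line 21 spheres only (2.20-fold) and Tpi1 in line 42 spheres only (2.28-fold). Against reverted cells 0 of 10 passed, beside 10.0% of 10330 genes, with Tpi1 at 1.59-fold and 2.57-fold higher in lines 21 and 42. The 4-mean limma called 0 genes in each of these 3 comparisons (1006, 1226 and 928 genes at an unadjusted p under 0.05, 0 of them members). These comparisons share the sphere arrays.

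**Figure D3:**
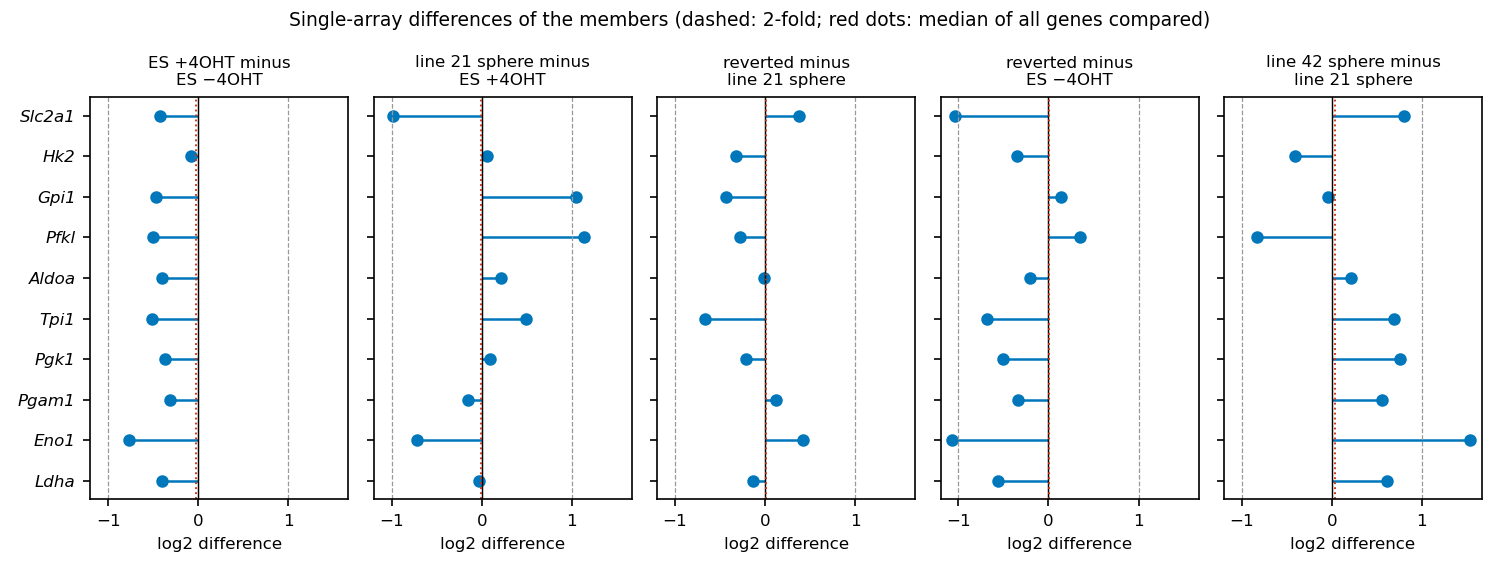
Log2 difference of each member between single arrays in 5 comparisons; dashed lines mark 2-fold and the dotted red line the median of all genes compared. In the first panel all 10 members are below 0, from -0.76 to -0.08, and in the last Eno1 reaches 1.54.

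Single arrays were compared with no replicate check. In ES cells, the centred log2 difference of cells with 4OHT from those without was below 0 for all 10 members, from -0.76 (Eno1) to -0.08 (Hk2) with a median of -0.42. The deposited Hk2 intensity, before centring, was higher with 4OHT. None was 2-fold apart, against 4.95% of 9852 genes, and the share of all genes below 0 was 52.7%. Of the 1614 genes with a mean intensity of at least 1000, 57.2% were below 0 (median -0.06), and the median of 12 housekeeping controls was -0.14. The members nearest to the median were Aldoa (-0.41), Slc2a1 (-0.42) and Ldha (-0.40). Under quantile normalization and without centring, 9 of 10 were below 0, with Hk2 at 0.00 and 0.06, while the median of all genes moved to 0.09 and 0.11.

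From ES cells with 4OHT to line 21 spheres, the differences of the members had different signs. Gpi1 (2.07-fold) and Pfkl (2.20-fold) were at least 2-fold higher, 2 of 10 against 12.7% of 10208 genes, with 26.5% past 2-fold in either direction, and Slc2a1 was 1.98-fold lower. Eno1 was 1.65-fold lower, and Ldha, Hk2 and Pgk1 were within 0.09 log2 units. The members' median was 0.07 with 6 of 10 above 0, 0.39 with 8 above 0 under quantile normalization, and -0.02 with 4 above 0 without centring. Without centring, Slc2a1 (-1.07) passed 2-fold, Pfkl (1.05) still did and Gpi1 (0.96) did not.

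Reverted cells were compared with the line 21 spheres they came from and with the ES cells at the start. None of the members was 2-fold apart between reverted cells and line 21 spheres, where 17.0% of 10036 genes were. The difference was largest for Tpi1, 1.59-fold lower in reverted cells. Against ES cells without 4OHT, 8 of 10 members were lower in reverted cells, as were 49.9% of genes (median log2 -0.43, all genes 0.00), and Eno1 (2.10-fold) and Slc2a1 (2.05-fold) were at least 2-fold lower, beside 6.34% of 9939 genes, 11.5% in either direction. Gpi1 and Pfkl were higher, by 0.14 and 0.35. Under quantile normalization 6 of 10 were lower and 0 by 2-fold, and without centring Eno1 (-0.97) and Slc2a1 (-0.93) also stayed under 2-fold. The stromal and fibroblast markers were at their highest sum in reverted cells (above), and their part in these differences was not tested.

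The sphere lines were compared with 1 array each and no replicate check. Line 42 exceeded line 21 by 2.90-fold in Eno1, 1.75-fold in Slc2a1, 1.68-fold in Pgk1, 1.62-fold in Tpi1, 1.53-fold in Ldha and 1.47-fold in Pgam1. Pfkl went the other way, 1.79-fold lower in line 42, and Gpi1 was equal within 0.05 log2 units. The median of the members was 0.59, with 7 above 0 and 3 below where 52.1% of genes were above 0, and that of the 1613 genes of mean intensity at least 1000 was 0.11. Eno1 was the only member past 2-fold, 1 of 10 against 7.87% of 9956 genes, or 15.7% in either direction. The brighter Aldoa probe read 1.16-fold and the dimmer 1.95-fold higher in line 42. The 7 members above 0 were the same count under quantile normalization, where the median was 0.41, and 8 without centring, with Gpi1 at 0.00.

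Eno1 had the widest range over the arrays. The genes with the most similar log2 profile, each centred on its own mean, were Cep19 (root mean square difference 0.07 log2 units over 5 arrays), Sdf2l1 (0.10), Tinf2 (0.10), Btbd6 (0.11) and Slc24a2 (0.13). Cep19 read 468, 332 and 275 on ES-type arrays, and 195 and 574 in spheres. None of the 5 is a member.

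The other genes of the pathway were examined through fixed lists. Of 19 compared isozymes and paralogs, 0 were called by limma, beside 2.44% of all genes, and their median was 0.07. An unadjusted p under 0.05 was seen for 3, against 18.9% of all genes. Slc2a3 (GLUT3), a second glucose transporter, read 7672 and 7325 in the ES cells, the second with 4OHT. Its level was 13671 in reverted cells, with 12870 and 11041 for the spheres (log2 0.38, limma adjusted p = 0.610). Pfkp, the platelet-type phosphofructokinase subunit, read 947 and 1095 in those ES cells, against 335 for reverted cells and 340 and 432 for the spheres (log2 -0.87, limma adjusted p = 0.453). In both genes the 1 array of reverted cells read nearer to the spheres than to the ES cells. Not so Pfkm, at 190, 188 and 210 on ES-type arrays and 363 and 202 in spheres. The share of all genes with such a pattern was not counted. The largest difference of the list was that of Bpgm (log2 0.96, limma adjusted p = 0.240). Pkm, pyruvate kinase, read 3961 to 5423 on ES-type arrays and 4307 and 5527 in spheres (log2 0.07), and Ldhb 2148 to 5050 against 3304 and 3820 (log2 -0.02). Hk1 read 28.0 to 37.7 against 18.3 and 18.5 (log2 -0.81, limma adjusted p = 0.152), with both spheres below all ES-type arrays, as in 18.5% of genes. The Gapdh probe read 289 to 425 against 164 and 428 (log2 -0.32, limma adjusted p = 0.761). Glycolytic genes have processed pseudogenes and close paralogs, which a probe may also detect.

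Beyond the isozymes, limma called 0 of 5 lactate and pyruvate transport genes, 0 of 9 control genes and 0 of 8 pyruvate dehydrogenase genes. In the pentose phosphate pathway it called 0 of 8, in gluconeogenesis 0 of 5 and in the tricarboxylic acid cycle 0 of 16. Among all genes 2.44% were called, so lists of this size may hold none. At an unadjusted p under 0.05 there were, in the same order, 1, 2, 2, 3, 2 and 1 genes, against 18.9% of all genes. The median of the pentose phosphate list was -0.59, with 7 of 8 below 0, such as Taldo1, transaldolase, at 6582, 6952 and 7795 on ES-type arrays and 4188 and 2915 in spheres (log2 -1.02, limma adjusted p = 0.119). Idh3b, a subunit of mitochondrial isocitrate dehydrogenase, was at least 2-fold lower in both spheres than on every ES-type array, at 990 to 1240 against 460 and 252 (log2 -1.68, limma adjusted p = 0.0606). Pfkfb3, which makes the activator of phosphofructokinase, read 90.7, 43.2 and 210 against 486 and 407 (log2 2.24, SE 0.64, limma adjusted p = 0.145). The lactate exporter Slc16a3 read 2672, 979 and 3564 against 5160 and 6132 (log2 1.42, SE 0.58, limma adjusted p = 0.263). Taldo1, Pfkfb3 and Slc16a3 were picked after their values were seen. How many of all genes met the 2-fold rule against every ES-type array, by which Idh3b was named, was not counted.

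In the list of glycogen and hexose side branches 1 of 19 genes rose and 1 fell, where limma called 0.963% of all genes higher and 1.47% lower, and 8 had an unadjusted p under 0.05, against 18.9% of all genes. The list's median was -0.12. Pygl, which releases glucose phosphate from glycogen, read 9.41, 13.0 and 8.42 on ES-type arrays and rose to 334 and 364 (log2 4.98, SE 0.25, limma adjusted p = 0.00433). Gfpt2, which draws fructose phosphate into hexosamines, read 234, 218 and 145 and fell to 32.2 and 18.3 (log2 -2.95, SE 0.37, limma adjusted p = 0.0263). Pgm2, a phosphoglucomutase (log2 1.87, limma adjusted p = 0.0954), was not called. Nor was Gpd2, the mitochondrial glycerol phosphate dehydrogenase (log2 -2.79, limma adjusted p = 0.0802). Both were at least 2-fold apart in both spheres from every ES-type array, a rule whose share over all genes was not counted.

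**Figure D4:**
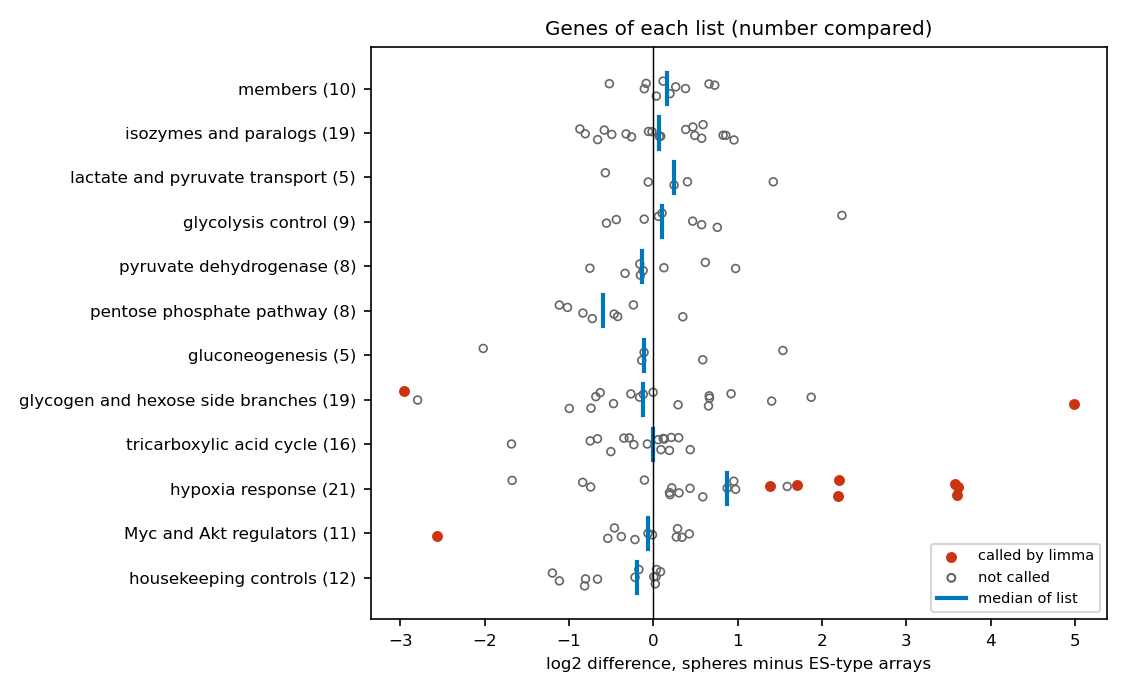
Log2 difference between spheres and ES-type arrays for each compared gene of the members and of 11 other lists (points, filled red where limma called the gene), with the list's median (blue bar) and the number of genes compared. The members' median is 0.16 and that of the hypoxia list 0.87.

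Regulators known to act on the pathway were listed too. Of the 21 compared hypoxia response genes limma called 7 higher and 0 lower, where 0.963% of all genes were called higher, and their median was 0.87. The largest differences among these 7 were those of Ankrd37 (3.61), Egln3 (3.60), Adm (3.58), Egln1 (2.20) and Ero1a (2.18). Ero1a read 200, 205 and 201 on ES-type arrays against 931 and 902 (log2 2.18, SE 0.21, limma adjusted p = 0.0136). Egln3, an oxygen-sensing prolyl hydroxylase, read 92.1, 28.0 and 79.8 against 745 and 707 (log2 3.60, limma adjusted p = 0.0399). Over the list, 17 genes were above 0 and 4 below. Both spheres lay above all ES-type arrays in 12 genes and below them in 3, as in 19.1% and 18.5% of all genes. Hif1a and Epas1 (HIF-2α) were named outside the rule. Hif1a read 364 to 459 against 328 and 425 (log2 -0.10, limma adjusted p = 0.852). Epas1, a dim probe, read 59.25, 30.1 and 18.3 against 6.36 and 13.5 (log2 -1.67, limma unadjusted p = 0.0254, adjusted p = 0.191). Promoter windows of all 7 called genes held ACGTG or GCGTG, where 43.8% of all windows did. Those of 5, such as Ero1a (above), held ACGTG, where 19.6% did. A list of hypoxia genes may hold the motif through its choice. List genes that were not called were not searched, and windows were not matched for base content. What part the motif had in the differences was not tested. This list was chosen with earlier results known and is no independent evidence of its direction. Without 1 array, the count of called hypoxia genes was 0 (ES cells without 4OHT), 1 (ES cells with 4OHT), 4 (reverted cells), 2 (line 21 spheres) and 1 (line 42 spheres).

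Of 11 Myc and Akt regulators limma called 1, Myc, as lower, where 1.47% of all genes were called lower. Myc read 296, 190 and 194 on ES-type arrays and fell to 38.2 and 34.8 (log2 -2.57, SE 0.31, limma adjusted p = 0.0246). Its relative Mycn, named outside the rule, read 3684, 806 and 4118 against 1679 and 1662 (log2 -0.46, limma adjusted p = 0.797). Among ES cells, the array with 4OHT had the lowest Mycn. Pygl, Gfpt2 and Myc lost their calls with 4 group means and when the array of untreated ES cells was left out. Of the 13 alternatives, Pygl was called in 11, Gfpt2 in 9 and Myc in 8. Gfpt2 was also lost without the array of ES cells with 4OHT or that of line 42 spheres, and Myc without the array of ES cells with 4OHT or either sphere array. The 12 housekeeping controls had a median of -0.19. Of them limma called 0, and 3 had an unadjusted p under 0.05, against 2.44% and 18.9% of all genes.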

How the data were processed

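The deposited values are probe intensity values of 5 arrays, made by the authors from amplified, Cy5-labelled RNA by the protocol of Toray, per the labels' protocols. Not given in the sources used here were scanner, background correction, normalization and the rule for empty cells. The medians near 50 show a common scaling, whose method is unknown. Symbols came from the platform annotation (16264 of 22871 probes), and 3787 of 16087 symbols were updated through RefSeq synonyms.

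The log2 of intensity plus a pseudocount of 1 was used, and arrays were centred on their median over 18884 probes listed on all 5. Genes had to be listed on the arrays compared and reach the array's 40th percentile on at least 1, and the probe of highest mean stood for a gene. limma 3.58.1 in R 4.3.3 (lmFit, eBayes, Benjamini-Hochberg over all genes, threshold 0.05) compared spheres with the ES-type arrays on 3 residual degrees of freedom, and was tested on simulated data. Its spread holds the differences between the ES-type cultures and between the sphere lines. Other comparisons counted 2-fold differences. Intervals are unadjusted, and the number of arrays limits the precision.

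Members and lists were chosen with earlier results of these data known. Named besides members were list genes past limma's threshold or 2-fold apart in both spheres from every ES-type array, isozymes, and genes nearest in profile. Some cell type markers and Taldo1, Pfkfb3, Slc16a3, Hif1a, Epas1 and Mycn were named outside this rule. Alternatives were another pseudocount, scaling, filter, probe rule and variance model, and leaving out each array.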

Additional observations from a re-analysis of the deposited data

Results flagged for a closer look

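In Eno1 and Pgam1 the sphere lines lay on opposite sides of all 3 ES-type arrays, line 21 below and line 42 above. The log2 difference of line 42 from line 21 spheres was 1.54 for Eno1 and 0.56 for Pgam1. With 1 array a line this difference was not tested, and line 42 ES cells were not analysed here. The arrangement of line 21 below and line 42 above was seen for 5.00% of 10589 genes.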

How the results depend on the processing

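No member was called by limma under any of the 13 alternatives run for spheres against ES-type arrays, and the lowest adjusted p of a member was 0.182, for Tpi1 under quantile normalization. With 4 group means or without the array of untreated ES cells, limma called 0 of all genes. The 0 members there say nothing about them. No analysis paired by line was possible, because line 42 was arrayed as spheres only. The fit did not model that all ES-type arrays and 1 sphere array come from line 21. The count of all genes called, 258, was 0 with 4 group means and ranged from 0 to 263 when single arrays were left out. Pathway genes called, 10, ranged from 0 to 8 in this way, and hypoxia genes called, 7, from 0 to 4. The member median of 0.16 ranged from 0.03 to 0.41. The log2 difference of Eno1 turned from -0.11 to 0.13 under quantile normalization and ranged from -0.86 to 0.67 without 1 array. Likewise Pgam1 ranged from -0.23 to 0.32, Pfkl from -0.15 to 0.70, Hk2 from -0.28 to 0.14 and Ldha from -0.09 to 0.51. Aldoa was at -0.11 by its dimmer probe, an alternative chosen after seeing the data. The count of members 2-fold apart in both lines, 0 in each comparison, was 1 at a 1.5-fold threshold in each (Slc2a1, Gpi1 and Tpi1). With 1 sphere line it ranged from 0 to 2 against ES cells without 4OHT, from 1 to 2 against those with 4OHT and from 0 to 2 against reverted cells. Quantile normalization moved the member median of the reverted against the untreated ES cells from -0.43 to -0.12, and that of line 21 spheres against ES cells with 4OHT from 0.07 to 0.39. The cause was not tested. With 1 array left out of an arm of 2, the lone sphere is assumed to vary like the other group.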
